A study of Mus musculus with 8 samples.

Results

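The 39 mouse Hox genes were examined in RNA-seq counts of lung myofibroblasts. They were chosen by name alone, as every gene of the table whose identifier maps to Hox, a cluster letter from a to d and a paralog number from 1 to 13, and they are 39 of the 43432 genes in the table. Of these, 15 were detected, meaning that at least 4 of the 8 libraries held 1 CPM or more (CPM is a count scaled to library size), and the same 15 were expressed highly enough to be tested between the groups.

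The series holds 8 libraries of lung myofibroblasts from mice of postnatal day 7 on a C57BL/6 background. The control group has 4 wild-type libraries and the other group has 4 libraries labelled Fra-2 transgenic, which the series describes as expressing Fra-2 constitutively. Fra-2, encoded by Fosl2, is a transcription factor of the AP-1 family. The labels name neither what drives the transgene nor the animals behind each library, so p-values measure the spread between these libraries, which may be partly technical. Fosl2 itself measured 120 ± 15.0 CPM (SD, n = 4) in the control libraries and 132 ± 25.7 CPM (SD, n = 4) in the other group, a log2 fold change of 0.14 (SE 0.136, adjusted p = 0.888 with edgeR's quasi-likelihood test), so a higher level of this gene was not shown and "Fra-2 transgenic" below refers to the label. Without 1 library the log2 fold change of Fosl2 ran from 0.013 (without Fra-2 transgenic library 1) to 0.24 (without Fra-2 transgenic library 4).

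Hox genes encode homeodomain transcription factors that give cells their position along the head-to-tail axis. Mammals carry them in 4 clusters, HoxA to HoxD, in which all genes are read in the same direction. Genes at the 3′ end of a cluster, with low paralog numbers, are switched on earlier in the embryo and reach further toward the head than genes at the 5′ end, and the pattern is kept in adult fibroblasts as a memory of where they arose. In the lung, Hox genes of the anterior and middle paralog groups are expressed in the mesenchyme, and the group 5 genes are known to be needed there for branching and for alveolar development. Polycomb proteins hold silent Hox genes closed, Trithorax proteins keep active ones open, and retinoic acid switches on the 3′ genes.

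The clusters lie on 4 chromosomes (GRCm38 coordinates from the GENCODE annotation). HoxA spans chr6:52155590-52260880 on the minus strand with 11 genes. HoxB spans chr11:96194316-96368256 on the plus strand with 10 genes. HoxC spans chr15:102921103-103036852 on the plus strand with 9 genes, and HoxD spans chr2:74668310-74765142 on the plus strand with 9 genes.

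Promoters of 6 genes are printed because they belong to the most strongly expressed gene of HoxA (Hoxa5), the gene of second rank in HoxB (Hoxb4), the last detected gene of each active cluster (Hoxa7, Hoxb8), the undetected neighbour of Hoxa7 (Hoxa9) and a gene of the silent HoxD cluster (Hoxd4). Each is 300 bases long and crosses the start of transcription near its end, 5′ to 3′ on the gene's strand, from RefSeq on GRCm38.p6. Capitals mark CG dinucleotides (CpG), the sites at which DNA can be methylated in the clusters' CpG islands.
Hoxa5: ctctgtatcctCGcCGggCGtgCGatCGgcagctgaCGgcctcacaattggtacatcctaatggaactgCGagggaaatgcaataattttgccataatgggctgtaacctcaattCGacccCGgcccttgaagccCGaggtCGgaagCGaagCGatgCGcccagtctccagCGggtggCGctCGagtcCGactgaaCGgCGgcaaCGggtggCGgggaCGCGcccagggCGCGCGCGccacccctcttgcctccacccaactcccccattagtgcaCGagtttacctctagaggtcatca
Hoxa7: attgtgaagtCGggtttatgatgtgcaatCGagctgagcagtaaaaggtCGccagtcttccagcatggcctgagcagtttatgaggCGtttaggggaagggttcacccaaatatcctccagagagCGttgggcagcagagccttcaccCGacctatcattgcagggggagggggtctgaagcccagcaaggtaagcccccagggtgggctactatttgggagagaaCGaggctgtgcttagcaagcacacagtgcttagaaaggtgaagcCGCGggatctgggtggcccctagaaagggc
Hoxa9: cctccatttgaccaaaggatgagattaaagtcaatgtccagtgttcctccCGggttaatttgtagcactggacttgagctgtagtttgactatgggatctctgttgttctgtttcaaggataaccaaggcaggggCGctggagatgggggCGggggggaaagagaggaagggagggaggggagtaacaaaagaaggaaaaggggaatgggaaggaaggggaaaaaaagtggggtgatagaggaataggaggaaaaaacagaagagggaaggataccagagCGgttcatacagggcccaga
Hoxb4: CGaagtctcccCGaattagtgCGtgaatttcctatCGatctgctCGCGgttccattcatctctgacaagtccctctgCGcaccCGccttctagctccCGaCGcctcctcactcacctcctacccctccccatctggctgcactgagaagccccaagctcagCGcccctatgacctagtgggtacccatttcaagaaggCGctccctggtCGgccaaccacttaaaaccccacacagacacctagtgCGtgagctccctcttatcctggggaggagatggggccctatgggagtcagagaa
Hoxb8: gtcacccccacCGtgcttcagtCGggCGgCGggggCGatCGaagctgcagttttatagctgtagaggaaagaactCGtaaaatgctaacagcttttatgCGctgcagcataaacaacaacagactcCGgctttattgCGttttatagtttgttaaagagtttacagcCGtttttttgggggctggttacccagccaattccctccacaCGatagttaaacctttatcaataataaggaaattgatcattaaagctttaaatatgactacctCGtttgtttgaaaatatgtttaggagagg
Hoxd4: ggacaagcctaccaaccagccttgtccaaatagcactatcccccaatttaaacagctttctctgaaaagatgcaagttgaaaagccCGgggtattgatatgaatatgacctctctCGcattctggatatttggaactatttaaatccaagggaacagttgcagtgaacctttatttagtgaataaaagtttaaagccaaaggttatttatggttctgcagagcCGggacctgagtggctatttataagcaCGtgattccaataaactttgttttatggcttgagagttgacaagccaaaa
These windows are chr6:52204538-52204837 (Hoxa5, minus strand), chr6:52218524-52218823 (Hoxa7, minus), chr6:52227321-52227620 (Hoxa9, minus), chr11:96318017-96318316 (Hoxb4, plus), chr11:96281655-96281954 (Hoxb8, plus) and chr2:74721728-74722027 (Hoxd4, plus). They hold 29, 9, 4, 14, 13 and 4 CpG, in that order.

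RefSeq's table had 24 promoters for 22 of the 39 Hox genes. Their median GC content was 57.7% and they held a median of 14.5 CpG, against 52.7% and 7 over all 32851 promoters in the table. The ratio of observed to expected CpG had a median of 0.626 for the Hox promoters and 0.384 for all. The table covered 8 of the 15 detected genes, and Hoxb5 was not among them. Those covered were not the richer ones in CpG: the 8 promoters of detected genes had a median of 13.5 CpG, and the 16 promoters of undetected genes one of 17.5. Thus Hoxa9 and Hoxd4, with 4 CpG each, do not stand for the silent genes as a whole, among which counts ran up to 45 at Hoxa13. A total of 3 motifs was searched on both strands. The TATA box TATAAA was in 4 of 24 Hox promoters (16.7%) and 13.6% of all, and CCAAT in 15 of 24 (62.5%) and 37.4% of all. The sequence TGATNNAT, a form of the joint site of TALE and Hox proteins, was in 4 of 24 (16.7%) and 8.85% of all. It was found at Hoxa2, Hoxb1 and Hoxb8 among the 8 promoters of detected genes, and at 1 promoter of Hoxd11 among the 16 of undetected genes. A match describes these letters only, not a bound site.

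The 8 libraries held 29926239 to 41335957 counts each, and 10192 to 14904 of those counts per library fell on Hox genes. The 10 myofibroblast markers looked at were all present, with a summed level of 16694 to 18594 CPM in the controls and 17038 to 18858 CPM in the Fra-2 transgenic libraries. The sum does not show that each marker was alike in the groups. Of the 10, 1 was called higher and 1 lower in the Fra-2 transgenic group (adjusted p under 0.05, edgeR), against 0.720% and 0.298% of all genes tested. Markers of other cells summed to far less: 56.6 to 129 CPM in controls and 106 to 202 CPM in the Fra-2 transgenic group for epithelium (10 genes), 54.7 to 80.7 and 74.5 to 92.6 for endothelium (8 genes), 80.2 to 130 and 97.1 to 124 for blood and immune cells (10 genes), and 56.6 to 80.7 and 72.1 to 101 for cartilage (5 genes, with Matn1 at 0). Mesothelium (5 genes) summed to 2.48 to 8.0 and 5.32 to 12.5 CPM, neural and Schwann cells (6 genes) to 1.93 to 2.99 and 2.28 to 4.29 CPM, and skeletal muscle (5 genes, with Myod1 and Pax7 at 0) to 1.47 to 3.22 and 1.30 to 2.17 CPM. The part of such cells in the Hox levels was not tested. In these bulk samples, fewer cells of a type and less RNA per cell cannot be told apart.

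All 15 detected Hox genes lay in HoxA and HoxB. HoxA had 7 of 11 detected, an unbroken run of its 3′ genes that ends at Hoxa7, and HoxB had 8 of 10, an unbroken run from Hoxb1 to Hoxb8. HoxC and HoxD had 0 of 9 each. In reads over all 8 libraries, HoxB had 72463, HoxA 24550, HoxC 116 and HoxD 6. HoxB therefore held 73.0 to 77.3% and HoxA 22.5 to 26.8% of the Hox CPM of a library.

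**Figure D1:**
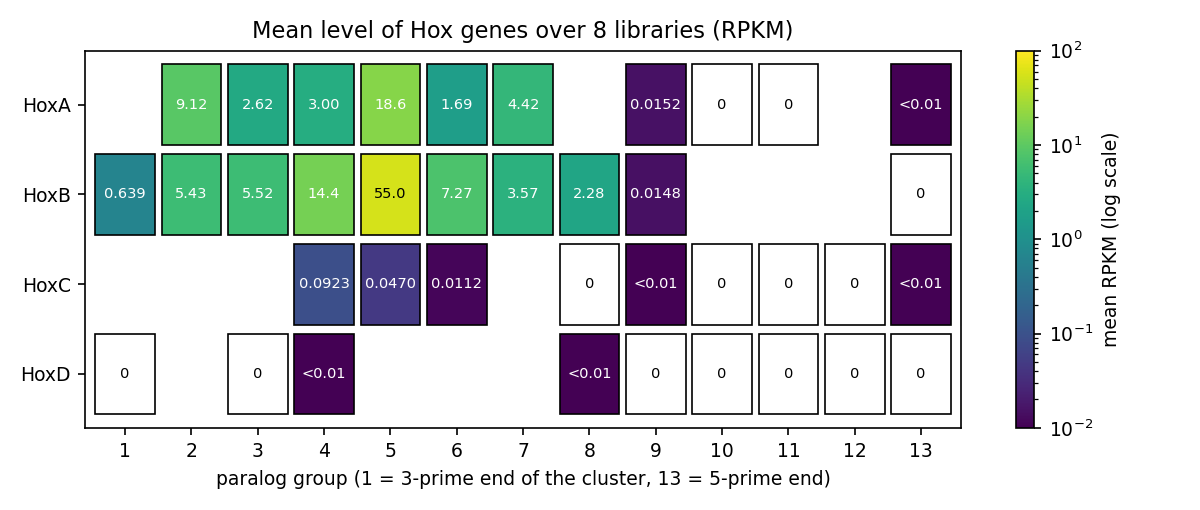
Mean level of 38 of the 39 Hox genes over the 8 libraries, in CPM per kb of exon (RPKM, colour on a log scale), with paralog groups 1 to 13 from left to right and the 4 clusters from top to bottom; an empty place has no gene or is not shown and a white box had 0 reads. Levels above 0.1 RPKM stop after group 7 in HoxA and group 8 in HoxB, and no gene of HoxC or HoxD reached 0.1 RPKM.

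The code was thus one of anterior and middle genes. Paralog groups 1 to 8 have 23 genes, of which 15 were detected and the other 8 are all members of HoxC or HoxD. Paralog groups 9 to 13, whose genes mark the hind part of the trunk, the limbs' ends and the urogenital tract, have 16 genes, of which 0 were detected. Those 16 genes together had 42 reads in all 8 libraries, and 11 of them had none.

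In both active clusters the level dropped between adjacent genes. Hoxa7 had 3491 reads over all libraries and its neighbour Hoxa9, which lies 1.25 kb further 5′, had 23. Per kb of exon that was a 294-fold difference (95% exact interval 196 to 465, counting error only), and per kb of coding sequence one of 127-fold (interval 84.4 to 200.3). Hoxb8 had 1669 reads and its neighbour Hoxb9, 5.31 kb further 5′, had 11, a 148-fold difference per kb of exon (interval 82.6 to 297) and 156-fold per coding kb (interval 87.01 to 313). The detected run was 66.3 kb long in HoxA, of a cluster of 105 kb, and 86.4 kb in HoxB, of a cluster of 174 kb.

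**Figure D2:**
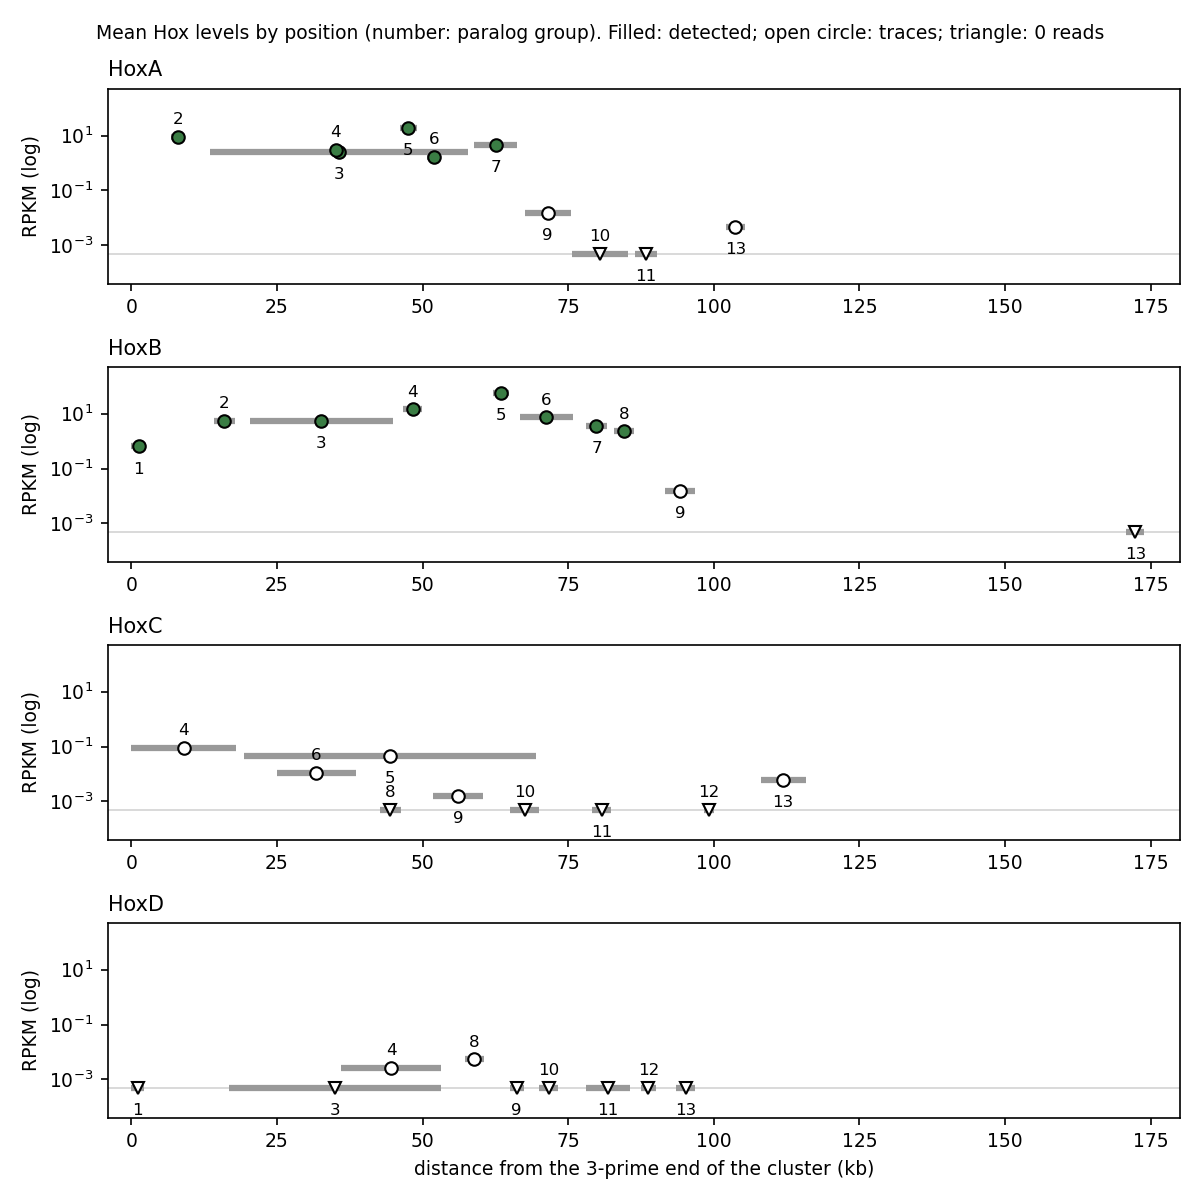
Mean level of 38 of the 39 Hox genes over the 8 libraries (RPKM, log axis) against its distance in kb from the 3′ end of its cluster, with a grey bar for the gene's extent. Filled circles are detected genes, open circles genes with trace reads and triangles genes with 0 reads; in HoxA and HoxB the filled circles end at Hoxa7 and Hoxb8.

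The 24 undetected genes were at or near 0. For 14 of them no library held a read: Hoxa10, Hoxa11, Hoxb13, Hoxc8, Hoxc10, Hoxc11, Hoxc12, Hoxd1, Hoxd3, Hoxd9, Hoxd10, Hoxd11, Hoxd12 and Hoxd13. A count of 0 allows up to 3 counts, which is 0.0688 to 0.0955 CPM depending on the library. The other 10 had 1 to 64 reads over the 8 libraries, with 23 for Hoxa9, 3 for Hoxa13, 11 for Hoxb9, 64 for Hoxc4, 40 for Hoxc5, 7 for Hoxc6, 1 for Hoxc9, 4 for Hoxc13, 2 for Hoxd4 and 4 for Hoxd8. Other genes, among them each other, overlap 62.8% of the exon bases of Hoxd3 and 52.3% of those of Hoxd4.

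Hoxc4 and Hoxc5 carried the highest traces and are the 3′ members of HoxC. Hoxc4 had 5, 4, 16 and 4 reads in the 4 control libraries and 9, 7, 11 and 8 in the Fra-2 transgenic ones. Hoxc5 had 3, 4, 0 and 3 reads in the controls and 3, 1, 16 and 10 in the Fra-2 transgenic group. Both were read in nearly every library and both groups overlapped. Hoxa9 had 0, 5, 2 and 0 reads in the controls and 1, 5, 4 and 6 in the Fra-2 transgenic libraries, again with overlap. At this depth a difference in these genes was not detectable.

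Among detected genes, levels per length spanned from 55.0 RPKM at Hoxb5 to 0.639 RPKM at Hoxb1 (means over 8 libraries). After Hoxb5 came Hoxa5 at 18.6, Hoxb4 at 14.4, Hoxa2 at 9.12, Hoxb6 at 7.27, Hoxb3 at 5.52, Hoxb2 at 5.43, Hoxa7 at 4.42, Hoxb7 at 3.57, Hoxa4 at 2.996, Hoxa3 at 2.62, Hoxb8 at 2.28 and Hoxa6 at 1.69 RPKM. Of the 14 pairs of neighbours in the order of all 15 genes, 2 had ranges over the libraries that did not overlap: Hoxb5 was 2.96-fold above Hoxa5, and Hoxb4 was 1.58-fold above Hoxa2. The order of the other neighbours is not separated by their spread, although Hoxa5 was above Hoxb4 and Hoxb6 above Hoxb3 within each of the 8 libraries. The order also depends on the length used. With the coding length alone Hoxb5 was at 190 RPKM and stayed first, while Hoxb4 (49.3) passed Hoxa5 (43.1). Other genes share all but 2001 of the 4251 exon bases of Hoxb3. Per kb of exon that no other gene shares, Hoxb3 passed Hoxa2, and it was above Hoxb6 within each of the 8 libraries.

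A single gene, Hoxb5, took 39.2 to 48.4% of the Hox CPM of a library. With Hoxa5 and the trace of Hoxc5 it made paralog group 5 the leading group, at 183 ± 10.4 CPM in controls and 193 ± 14.5 CPM in the Fra-2 transgenic libraries (SD, n = 4), which was 48.0 to 58.3% of all Hox CPM. In HoxB the mean level per kb was higher from each gene to the next up to group 5 (Hoxb2 and Hoxb3 within their spread) and lower from each to the next after it. In HoxA the course was uneven, with Hoxa2 above Hoxa3 and Hoxa4, and Hoxa7 above Hoxa6.

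Among paralog groups 2 to 7, HoxB members were the higher ones in groups 3 to 6. Hoxb3 was 2.12-fold above Hoxa3, Hoxb4 was 4.89-fold above Hoxa4, Hoxb5 was 3.0-fold above Hoxa5 and Hoxb6 was 4.66-fold above Hoxa6, per kb and within each of the 8 libraries. The ranges over libraries were 1.75 to 2.41, 3.84 to 6.90, 2.49 to 3.94 and 3.04 to 7.87. The direction was the other way in groups 2 and 7, where the ratio of HoxB to HoxA was 0.596 and 0.866 and the HoxB gene was higher in 1 library of 8 in each. In group 2 the direction turned with the length used: per coding kb Hoxb2 was 1.23-fold Hoxa2, and higher in 5 of 8 libraries. The order of the other 5 groups kept its direction under coding length and under exon bases that no other gene shares. The sizes depended on the length, beyond the ranges over libraries. Per coding kb the ratios in groups 3 to 6 were 1.53, 8.97, 4.47 and 10.9. Per kb of exon that no other gene shares they were 3.28, 4.11, 3.11 and 4.66.

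**Figure D3:**
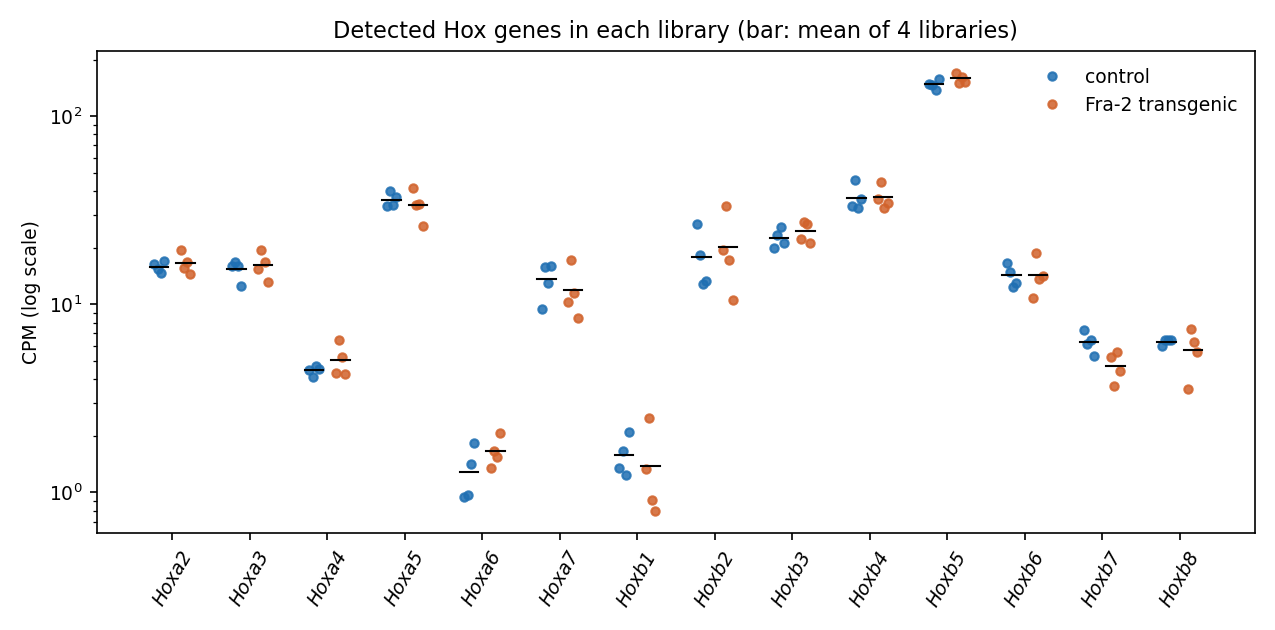
CPM (log axis) of 14 of the 15 detected Hox genes, one point per library and a bar at each group's mean (n = 4), control in blue and Fra-2 transgenic in orange. The 2 groups overlap for every gene shown, and Hoxb5 stands above all others.

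The design compares libraries labelled Fra-2 transgenic with wild type, and no Hox gene passed the test in that comparison. Of all 15422 genes tested, 157 were called at an adjusted p under 0.05 with edgeR (1.02%), 111 of them higher (0.720%) and 46 lower (0.298%), and 0 of the 15 tested Hox genes were among them. DESeq2 and limma-voom also called 0 Hox genes, and 0 of the 15 had an unadjusted p under 0.05, against 8.71% of all genes tested. For 0 of the 15 did the groups not overlap, against 5.76% of all. With 15 genes, counts of 0 are near those backgrounds and say nothing particular about Hox genes. Log2 fold changes ran from -0.42 to 0.36 with a median of 0.0067 (9 above 0 and 6 below), against a median of -0.0123 over all genes. Their median size without sign was 0.157, and that of all genes 0.158. Beside this, the 95% interval lay within a 2-fold change either way for 13 of the 15 genes and within 1.5-fold for 7. The intervals of Hoxa6 and Hoxb1, both low in level, reached past 2-fold.

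**Figure D4:**
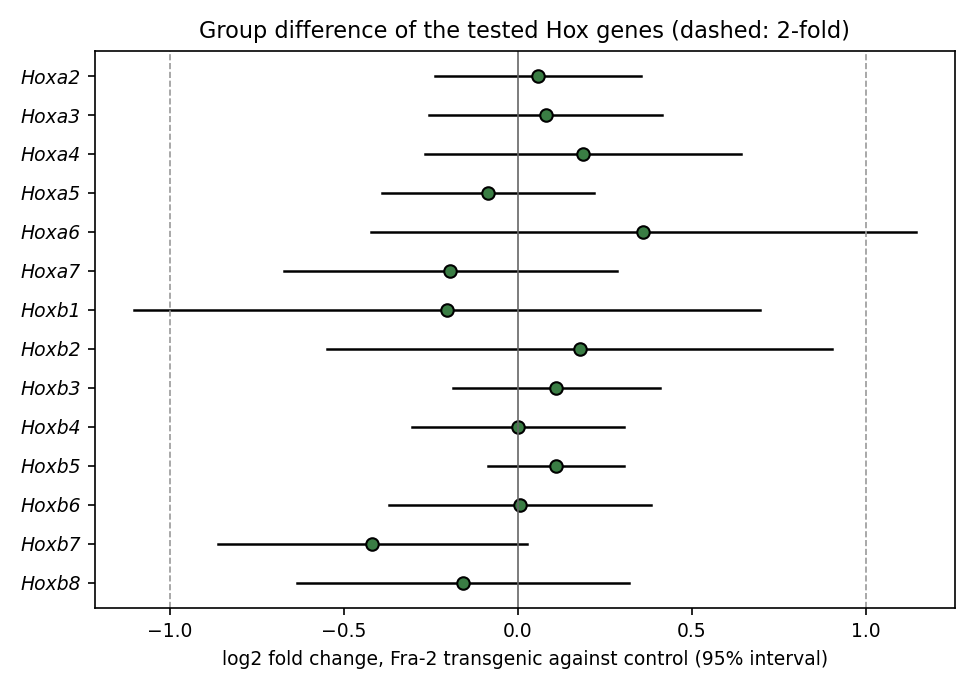
Log2 fold change of 14 of the 15 tested Hox genes, Fra-2 transgenic against control, with its 95% interval from edgeR (n = 4 and 4); dashed lines mark 2-fold. Every interval shown includes 0, and those of Hoxa6 and Hoxb1 cross a dashed line.

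The group 5 genes are the Hox genes best known for lung mesenchyme. Hoxb5 (ENSMUSG00000038700, chr11:96303336-96306121) was at 148, 147, 137 and 158 CPM in the controls and at 170, 151, 162 and 153 CPM in the Fra-2 transgenic libraries. The highest values belonged to the latter group but the groups overlapped, with means of 147 ± 8.57 and 159 ± 8.94 CPM (SD, n = 4). The log2 fold change was 0.11 (SE 0.0911, 95% interval -0.09 to 0.30, adjusted p = 0.850 with edgeR), the narrowest interval of the set. Hoxa5 (ENSMUSG00000038253, chr6:52201754-52204587), whose loss in mice disturbs the airways and alveoli, was at 33.3, 39.8, 33.6 and 37.3 CPM in the controls. In the Fra-2 transgenic libraries it was at 41.6, 33.8, 34.1 and 26.1 CPM, so that group held both the highest and the lowest value. Its log2 fold change was -0.09 (SE 0.142, adjusted p = 0.943, edgeR).

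The groups 2 to 4 pattern the hindbrain and neck in the embryo. Hoxb4 (ENSMUSG00000038692), also known for its part in blood stem cells, was at 33.2, 45.6, 32.7 and 36.3 CPM in the controls and 36.1, 44.8, 32.5 and 34.6 CPM in the Fra-2 transgenic group. The library numbered 2 was the highest of each group, and the means differed by far less than the spread (36.9 ± 5.99 and 37.0 ± 5.42 CPM; SD, n = 4; adjusted p = 0.998, edgeR). Hoxa2, needed for the second pharyngeal arch, was at 16.3, 15.5, 14.7 and 17.03 CPM in the controls and 19.4, 15.5, 16.7 and 14.5 CPM in the Fra-2 transgenic group. Values of the groups were interleaved (adjusted p = 0.961, edgeR). Hoxb3 was at 19.9, 23.2, 25.9 and 21.3 CPM against 27.4 and 26.8 CPM in Fra-2 transgenic libraries 2 and 3 and 22.2 and 21.2 CPM in libraries 1 and 4 (adjusted p = 0.927, edgeR). Other genes overlap 52.9% of its exon bases and 15.0% of those of Hoxa2. Gm28308, which overlaps Hoxa2 and has no exon base to itself, had 0 reads in every library. Reads in shared bases may have been left out of the counts, which would lower the levels of Hoxb3 and Hoxa2. How such reads were counted was not tested.

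Hoxb2, which acts in the hindbrain with Hoxb1, was the most variable of the more strongly expressed genes. It was at 26.6, 18.3, 12.8 and 13.3 CPM in the controls and 19.5, 33.2, 17.2 and 10.6 CPM in the Fra-2 transgenic group. The range within either group was wider than the gap between the means of 17.7 ± 6.39 and 20.1 ± 9.48 CPM (SD, n = 4; log2 fold change 0.18, SE 0.329, adjusted p = 0.952, edgeR). Without the Fra-2 transgenic library 2 the log2 fold change was -0.17. Of its exon bases 27.3% overlap the antisense gene Hoxb3os.

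Genes of groups 6 and 7 pattern the thorax. Hoxb6 was at 16.6, 14.9, 12.4 and 12.996 CPM in the controls and 10.8, 18.7, 13.7 and 14.1 CPM in the Fra-2 transgenic group, which again held the lowest and the highest value (adjusted p = 0.997, edgeR). Hoxa7 was at 9.48, 15.8, 12.9 and 16.1 CPM in the controls and 10.3, 17.1, 11.5 and 8.45 CPM in the Fra-2 transgenic libraries (log2 fold change -0.19, adjusted p = 0.913, edgeR). Without 1 library its log2 fold change ran from -0.42 (without Fra-2 transgenic library 2) to -0.06 (without Fra-2 transgenic library 4). Neither gene separated the groups.

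Hoxb7 and Hoxa6, together with Hoxb5, had the smallest unadjusted p-values. Hoxb7 was at 7.34, 6.13, 6.44 and 5.29 CPM in the controls and 5.22, 3.66, 5.58 and 4.43 CPM in the Fra-2 transgenic group. Control library 4 fell among the Fra-2 transgenic values, while the other 3 controls were above all of them. The means were 6.30 ± 0.846 and 4.72 ± 0.854 CPM (SD, n = 4), with a log2 fold change of -0.42 (SE 0.207, 95% interval -0.86 to 0.03, adjusted p = 0.626 with edgeR over all 15422 genes). Hoxa6 was low, at 0.941, 0.969, 1.42 and 1.84 CPM in the controls and 1.36, 1.66, 1.54 and 2.07 CPM in the Fra-2 transgenic group. Its groups overlapped, and its log2 fold change of 0.36 (SE 0.365, 95% interval -0.42 to 1.14) had an adjusted p of 0.888 (edgeR). Without 1 library it ran from 0.24 (without Fra-2 transgenic library 4) to 0.58 (without control library 4).

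Hoxa3, Hoxa4, Hoxb1 and Hoxb8 also overlapped between the groups. Their means in controls and Fra-2 transgenic libraries were 15.3 and 16.2 CPM for Hoxa3, 4.46 and 5.09 CPM for Hoxa4, 1.59 and 1.38 CPM for Hoxb1, and 6.34 and 5.68 CPM for Hoxb8. The biological coefficient of variation, the spread between libraries beyond counting noise, ran from 0.109 at Hoxb5 to 0.408 at Hoxb1 with a median of 0.220 over the 15 genes, against 0.201 over all genes.

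Summed over a cluster the groups overlapped as well. HoxA was at 89.2 ± 5.68 CPM in controls and 87.6 ± 11.5 CPM in the Fra-2 transgenic group, HoxB at 253 ± 12.5 and 267 ± 18.2 CPM, and HoxC at 0.351 ± 0.217 and 0.504 ± 0.268 CPM (SD, n = 4). The sum of all Hox genes was 343 ± 15.6 CPM in controls and 355 ± 29.1 CPM in the Fra-2 transgenic group, with a range of 316 to 385 CPM over the 8 libraries. HoxD stayed at or under its floor of 3 counts in each library.

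The other annotated transcripts of the clusters had nearly all their reads on the same side of the boundary as the detected Hox genes. Beside the detected genes of HoxA lie 11 other annotated genes, of which 8 had reads (4397 in all), while the 9 that lie 5′ of Hoxa7 had 0. Beside the detected genes of HoxB 4 of 4 had reads (683), and of the 5 that lie 5′ of Hoxb8 2 had reads (16). The 7 other genes of HoxC and the 9 of HoxD had 0. Some of these genes share every exon base with another gene, and a count of 0 there says nothing about their expression. These are Gm27867, Gm27868 and Gm28308 beside the detected genes of HoxA, and Gm27337 and Gm27443 in HoxC. Mir196b, Gm28032, Gm27492, Gm27695 and Gm27543, which lie 5′ of Hoxa7, are such genes too. Hoxa11os and 9530018H14Rik, also 5′ of Hoxa7, had 0 reads with 1609 and 1243 unshared bases. Hotairm1, an antisense RNA at the 3′ end of HoxA, was the most abundant at 4.63 ± 1.39 CPM in controls and 5.11 ± 1.68 CPM in the Fra-2 transgenic group (SD, n = 4). Hotairm1, Hoxaas2, Hoxaas3, Hoxb5os and Hoxb3os share exon bases with Hox genes on the opposite strand. No step is said to keep strand, so some of their reads may come from Hox genes. Their side of the boundary is thus not independent of the Hox genes, and the part of such reads was not tested. Hottip and Hoxa11os at the 5′ end of HoxA, Hotair in HoxC, and Haglr and Hoxd3os1 in HoxD were at 0. Of these other genes 11 were tested and 0 were called. Short hairpin RNAs are not expected to be captured by the mRNA selection, so counts of 0 at miRNA genes say nothing about the miRNAs.

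**Figure D5:**
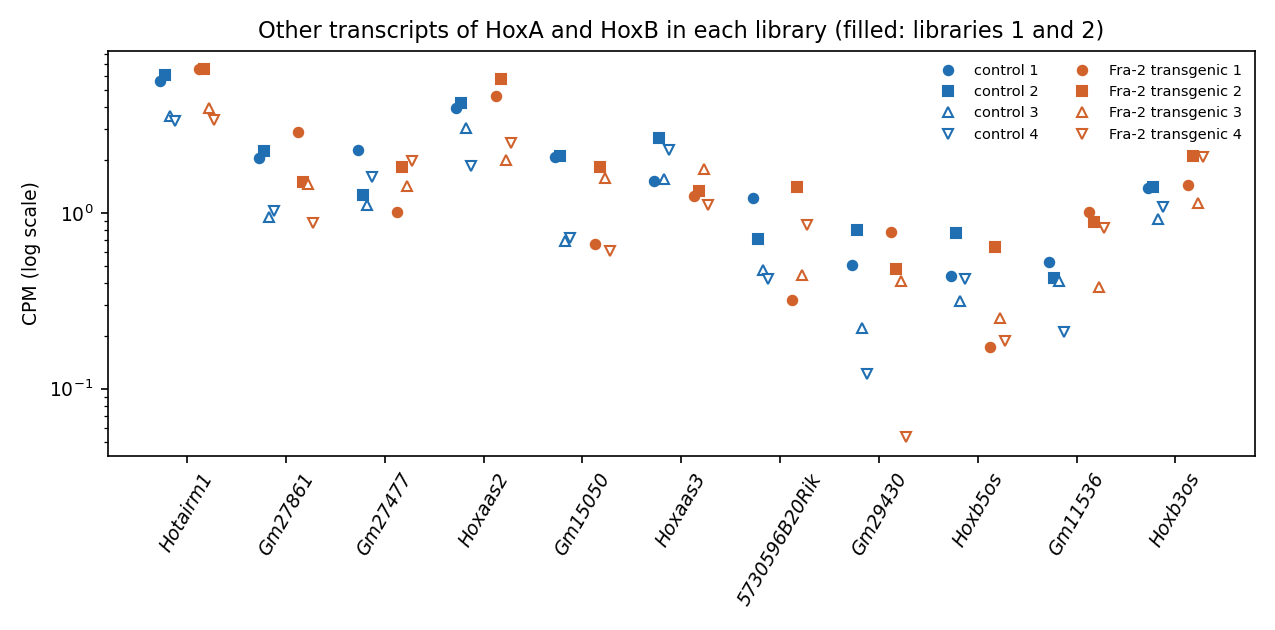
CPM (log axis) of the 11 other transcripts of HoxA and HoxB with enough reads to be tested, one symbol per library, control in blue and Fra-2 transgenic in orange, libraries 1 and 2 filled and 3 and 4 open. For Hotairm1 all filled symbols (5.60 to 6.56 CPM) lie above all open ones (3.31 to 3.94 CPM), in both groups.

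Of the flanking genes looked at, those on the 3′ side of HoxA and HoxB were at higher levels than those on the 5′ side. They lie at unlike distances and do not describe the flanks as a whole. Skap2, 143 kb beyond the 3′ end of HoxA, was at 43.3 CPM (mean of 8 libraries), and Evx1, a homeobox gene 52.6 kb beyond its 5′ end, at 0.0182 CPM. Around HoxB, Skap1, 96.3 kb away on the 3′ side, was at 2.79 CPM and Ttll6, 28.9 kb away on the 5′ side, at 0.0617 CPM. HoxC and HoxD had 0 detected genes but expressed neighbours. Smug1 and Cbx5 on the 3′ side of HoxC were at 18.1 and 195 CPM, and Mtx2 and Lnpk on either side of HoxD at 19.7 and 13.9 CPM. Evx2, 8.75 kb from HoxD between Lnpk and the cluster, had 0 reads.

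Proteins that work with or on the clusters were expressed. The TALE homeodomain proteins, which bind DNA together with Hox proteins, had 8 of 9 members tested and 0 called, with Meis1 at 179 and 182 CPM. The median log2 fold change of the list was -0.05. The Polycomb complexes had 11 of 11 PRC2 members tested (most abundant Rbbp7, 136 and 142 CPM) and 11 of 11 PRC1 members (Phc3, 190 and 193 CPM), and 0 were called in either. Of the Trithorax proteins and the H3K27 demethylases 10 of 10 were tested (Kmt2a, 286 and 255 CPM) with 0 called. The median log2 fold changes of these 3 lists were -0.03, 0.05 and -0.09, against -0.0123 over all genes.

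The retinoid list had 12 of 16 members tested, with 1 higher and 0 lower in the Fra-2 transgenic group, against 0.720% of all genes higher and 0.298% lower. Its median log2 fold change was 0.17, and that of all genes -0.0123. The member that changed was Aldh1a2, the enzyme that makes retinoic acid in the embryo's mesoderm, which rose from 15.0 ± 2.82 to 48.2 ± 19.7 CPM (SD, n = 4; log2 fold change 1.68, SE 0.278, adjusted p = 0.0143, edgeR). The receptor Rxra, the most abundant member, was at 120 and 142 CPM (adjusted p = 0.651, edgeR). The call was lost without control library 1 (adjusted p = 0.0544) or 3 (adjusted p = 0.0503, edgeR), with log2 fold changes of 1.57 and 1.66. Mesothelial cells are known to express Aldh1a2. Their 5 markers summed to 2.48 to 8.0 CPM in controls and to 5.32 to 12.5 CPM in the Fra-2 transgenic libraries. Of these markers 4 were tested and 0 were called, with a median log2 fold change of 0.95, against -0.0123 over all genes. The part of such cells in the difference of Aldh1a2 was not tested. Hoxb1, which retinoic acid is known to induce, had an adjusted p of 0.954 (edgeR).

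Regulators that set the Hox code along the axis had 4 of 8 members tested and 0 called, led by Egr2 at 83.9 and 91.7 CPM. The caudal genes Cdx1, Cdx2 and Cdx4, which act on Hox clusters in the early embryo, were at 0. Of 7 genes reported to act downstream of the group 5 genes in lung, all were tested, 1 was higher and 0 lower, against the same shares of all genes, and the median log2 fold change was 0.15, against -0.0123 over all genes. The one that changed was Itga5, the fibronectin receptor's alpha chain, which rose from 173 ± 8.20 to 236 ± 19.7 CPM (SD, n = 4; log2 fold change 0.45, SE 0.0945, adjusted p = 0.0385, edgeR), while its partner Itgb1 was at 1938 and 1972 CPM (adjusted p = 0.980, edgeR). The call for Itga5 was lost without any one of control libraries 1, 2 or 3 or Fra-2 transgenic libraries 1, 3 or 4 (adjusted p from 0.0640 to 0.152, edgeR), and the log2 fold change stayed between 0.39 and 0.49. The list of 9 flanking genes had 6 tested and 0 called.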

How the data were processed

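RNA was selected as mRNA from 50 ng of total RNA, amplified as cDNA and made into libraries with a transposase kit, per the labels' protocols, and none of these steps is said to keep strand information. The authors deposited a table of raw counts per Ensembl gene. No source used here names the aligner or the counter, and the submitters' processing notes name the build GRCh38 although the identifiers are mouse. Symbols, lengths and positions came from the mouse GENCODE annotation on GRCm38 (42548 of 43432 identifiers matched). Differences were tested with edgeR 4.0.16 (R 4.3.3) by the quasi-likelihood test on 15422 genes kept by its filter (minimum count 10, minimum total 15), with TMM scaling and Benjamini-Hochberg adjustment over all of them at 0.05. CPM used the TMM library sizes, and RPKM divided by the union of exons. limma 3.58.1, DESeq2 1.42.0 and a term for sex (2 female and 2 male libraries per group, read from Xist and Y-linked genes) were among the alternatives, and the fit was tested on simulated data. The Hox genes, gene lists and tests were chosen with earlier results of these data known. Values per library are given for the 8 Hox genes of highest mean RPKM and the 3 of smallest unadjusted p. From each list other than the cell type markers, values are given for called members and the most abundant one. Other genes named were added after their values were seen. Values of some genes that entered the fit and the counts are not reported here.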

Additional observations from a re-analysis of the deposited data

Results flagged for a closer look

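Values for 20 Hox genes were screened in each group of 4 libraries, 40 sets in all, for a single library far from the other 3, and 3 were found. Chance alone gives about 5 in 100 such sets. Hoxa3 was lowest in control library 4, at 12.5 CPM. Hoxb8 was lowest in control library 1, at 5.99 CPM, where the other 3 controls lay close together. Hoxc4, with trace reads only, was highest in control library 3, at 0.505 CPM.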

How the results depend on the processing

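The 15 tested Hox genes were fitted again under 19 alternatives, including the removal of each of the 8 libraries in turn. Of these 285 tests 0 passed the threshold, and 265 kept the sign of the reported fold change and 20 did not. Genes with 1 sign throughout were 8 of the 15. Without 1 library in turn the log2 fold change ran from -0.023 to 0.12 for Hoxa2, -0.018 to 0.17 for Hoxa3, -0.20 to 0.021 for Hoxa5, -0.17 to 0.44 for Hoxb2, -0.10 to 0.13 for Hoxb4, -0.15 to 0.13 for Hoxb6 and -0.30 to 0.018 for Hoxb8. With 1 sign throughout it ran from 0.05 to 0.26 for Hoxa4, -0.65 to -0.011 for Hoxb1 and 0.05 to 0.19 for Hoxb3. Hoxb4 also turned to -0.00067 with upper-quartile scaling, -0.0052 without the filter and -0.00033 with a mean of at least 1 CPM. Hoxb6 turned to -0.0015 without the filter, -0.026 with limma-voom and -0.0063 with a term for sex. The cause of these turns was not tested. Over the whole table the counts of genes called higher and lower (111 and 46) were 268 and 94 with DESeq2, and 180 and 73 with a term for the share of counts on antisense and processed-transcript genes, which was added after seeing the data and under which Hoxb2 had a log2 fold change of 0.37 and an adjusted p of 0.343 with edgeR. Without 1 library they ran from 50 to 153 and from 22 to 52, with 1 or both counts over 1.5 times lower without control 2 or 3 or Fra-2 transgenic 1, 3 or 4, and 0 Hox genes were called in any. The groups share replicate numbers. Deviations from the group means of same-numbered libraries correlated at 0.0018, 0.219, 0.0797 and 0.310. Replicates 2 and 4 but not 1 and 3 were nearest their own number, so a pairing of the libraries by number was neither shown nor excluded. A replicate block gave 137 higher and 53 lower genes, called 0 Hox genes and moved Hoxb6 to -0.0080. Detected Hox genes numbered 15, 13 and 13 with a limit of 0.5 CPM, 2 CPM, or 1 CPM in all 8 libraries. Without the filter the adjusted p of Aldh1a2 was 0.130, and with a term for sex that of Itga5 was 0.0766 (edgeR). Per coding kb, a length added after seeing the data, the step from Hoxa7 to Hoxa9 was 127-fold in place of 294-fold. Depth limits the genes with 1 to 64 reads in all. They were tested only in the fit without the filter, where 0 of 25 Hox genes were called.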

Other observations

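Relative to the mean of each gene, the median log2 deviation of the 15 detected genes was 0.29 in Fra-2 transgenic library 2, where 10 of 15 were above their mean, with Hoxb2 at 0.90 and Hoxb7 at -0.56. It was -0.15 in Fra-2 transgenic library 4, where 2 of 15 were above, and between -0.07 and 0.08 in the other 6.

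The libraries numbered 1 and 2 had higher levels of some noncoding transcripts of the clusters than those numbered 3 and 4, in both groups alike. This was seen in the data and then described, so it carries no test. The summed CPM of the other transcripts beside detected Hox genes was 20.7 to 24.4 in libraries 1 and 2 and 13.03 to 14.7 in libraries 3 and 4. Hotairm1, Gm27861, Hoxaas2 and Gm29430, 4 of the 11 tested, each had no overlap between these sets, as did 1 of the 15 detected Hox genes, Hoxb2. Of all 15422 genes tested, 1454 (9.43%) had no overlap in this split, so the Hox genes did not exceed the share of all genes. The split by group label had no overlap for 889 of the genes tested (5.76%), which is fewer. The reported fit has no term for libraries 1 and 2 against 3 and 4. The share of all counts on antisense and processed-transcript genes was 0.253 to 0.317% in libraries 1 and 2 and 0.206 to 0.240% in libraries 3 and 4, and its part in these differences was not tested. The summed CPM of the Hox genes overlapped, at 342 to 385 and 316 to 355. Each group holds 2 libraries of either set, and the labels name no batch.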
